A study of Homo sapiens with 6 samples.

Results

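Wnt signalling was followed at the level of messenger RNA through 32 genes chosen by name: 7 ligands, the ligand-modifying enzyme PORCN, 7 Frizzled receptors, the co-receptors LRP5 and LRP6, the R-spondin receptor LGR5, the secreted inhibitors DKK1 and DKK3, CTNNB1 and APC, 4 TCF/LEF factors and 6 feedback targets. They were read from tables of 17787 gene symbols, and every symbol was present in at least 1 library. RNA came from A549, a human lung adenocarcinoma line, in 3 libraries of cells given an siRNA named for FOXD3 (siFOXD3, with the same word as genotype label) and 3 control libraries (siNC, genotype label wild type; the abbreviation is not spelled out). All groups share the 1 line, no other treatment is labelled, and no label states whether replicates came from separate cultures, and p-values then cover no more than the spread among these libraries, some of which may be technical. Values are FPKM, sequenced fragments divided by the length of the transcript and by the library's total, so levels of different genes can be set side by side.

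In canonical Wnt signalling a secreted Wnt, made active by the acyltransferase PORCN, binds a Frizzled receptor and LRP5 or LRP6, and a complex that contains APC and AXIN proteins then stops marking beta-catenin (CTNNB1) for destruction. Beta-catenin enters the nucleus and acts through TCF/LEF factors, and genes such as AXIN2, NKD1, RNF43, ZNRF3 and SP5 are known to be switched on and to restrain the pathway in turn. Other Wnts, WNT5A and WNT11 among them, are best known for signalling without beta-catenin, and Wnt ligands such as WNT7B and WNT5A are known from lung development.

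The extraction protocol in the labels speaks of retina, while the cell type label is A549. The 8 photoreceptor markers together reached 0.767 to 1.1 FPKM in siFOXD3 and 0.605 to 1.09 FPKM in siNC, and 3 of them were at 0 in every library, whereas the 8 epithelial markers summed to 8970 to 9050 FPKM in siFOXD3 and 7000 to 8000 FPKM in siNC. Of 5 alveolar markers only NKX2-1 reached 1 FPKM in any library. Among markers of other cells, 4 of 7 leukocyte genes reached 1 FPKM in some library (CD14, CD68, LAPTM5 and CSF1R), while PTPRC, CD3E and CD79A did so in none. The 7 summed to 69.9 to 71.2 FPKM in siFOXD3 and 79.0 to 88.7 FPKM in siNC. Fibroblast markers summed to at most 3.63 FPKM in siFOXD3 and 4.61 FPKM in siNC, and endothelial markers to at most 2.18 and 3.4 FPKM. Their part in the results below was not tested. FOXD3 itself was listed at 0, 0.0749 and 0 FPKM in siFOXD3 replicates 1 to 3 and at 0.152, 0.291 and 0.134 FPKM in siNC replicates 1 to 3, too low to be tested. Read counts were not used here. Steps between low values gave a rough depth of 7800000 to 8640000 fragments in siFOXD3 and 7410000 to 8000000 in siNC.

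Promoter sequences were at hand for 21 of the 32 genes, from RefSeq on GRCh38.p14, a later build than the hg19 that the submitters' processing notes name. The 250 bases before the first listed start were searched on both strands for the TCF/LEF letters CTTTGAT, the forkhead letters TGTTTAC, since FOXD3 is a forkhead factor, and the E-box letters CACGTG. Shown are the promoters of 2 tested ligands of the 32 genes, those with the largest rise and the largest fall in log2 fold change. They are WNT9A (chr1:227947933-227948182, minus strand) and WNT10A (chr2:218880602-218880851, plus strand). Also shown are those of SP5 (chr2:170715087-170715336, plus strand), which held the TCF/LEF letters, and of WNT5B (chr12:1616806-1617055, plus strand), which held the forkhead letters. Sequences run 5′ to 3′ along the gene's strand and capitals mark a match.
WNT9A: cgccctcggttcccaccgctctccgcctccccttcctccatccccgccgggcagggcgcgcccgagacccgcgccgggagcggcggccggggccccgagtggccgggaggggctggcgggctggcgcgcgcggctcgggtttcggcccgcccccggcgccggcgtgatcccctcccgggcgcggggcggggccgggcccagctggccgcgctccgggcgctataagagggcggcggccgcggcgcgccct
WNT10A: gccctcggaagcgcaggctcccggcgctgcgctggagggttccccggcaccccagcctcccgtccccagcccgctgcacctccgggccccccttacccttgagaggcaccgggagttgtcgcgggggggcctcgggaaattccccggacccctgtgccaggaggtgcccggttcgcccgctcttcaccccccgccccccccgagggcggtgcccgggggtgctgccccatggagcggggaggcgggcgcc
SP5: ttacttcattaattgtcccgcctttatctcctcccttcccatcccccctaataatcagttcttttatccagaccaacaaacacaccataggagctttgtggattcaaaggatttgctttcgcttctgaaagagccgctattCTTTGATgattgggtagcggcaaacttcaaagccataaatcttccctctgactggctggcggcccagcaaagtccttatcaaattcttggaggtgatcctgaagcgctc
WNT5B: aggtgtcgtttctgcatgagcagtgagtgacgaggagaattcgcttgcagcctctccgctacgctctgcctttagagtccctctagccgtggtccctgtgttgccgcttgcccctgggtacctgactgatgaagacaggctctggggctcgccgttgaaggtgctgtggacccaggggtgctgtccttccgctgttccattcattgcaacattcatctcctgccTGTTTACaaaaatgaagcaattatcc
The TCF/LEF letters occurred in 1 of the 21 promoters, that of SP5, where they begin 109 bases before the start, and in 2.28% of all 27305 promoters. The forkhead letters occurred in 2, those of WNT5B and TCF7, and in 2.98% of all promoters, and the E-box letters in none, against 6.49% of all promoters. Neither WNT9A nor WNT10A held any of the 3 motifs. The median GC content was 68.8% over the 21 Wnt promoters and 58% over all promoters, with 84.4% in WNT9A, 77.6% in WNT10A, 54.8% in WNT5B and 45.6% in SP5. A match is a description of letters, not a binding site.

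A gene was tested if it reached at least 1 FPKM in at least 3 libraries, and called at a limma, Benjamini-Hochberg adjusted p under 0.05 over all 12555 genes tested. Of the 32 Wnt genes 25 were tested, and 16 were called, 8 higher and 8 lower in siFOXD3, which is 64% of those tested, while 65.9% of all tested genes were called (27.2% higher and 38.7% lower). The share of Wnt genes called was thus near that of all genes. Their median log2 fold change was -0.05, with -0.08 over all genes tested. The groups did not overlap for 16 of the 25, against 70.7% of all tested genes. Within the pathway the direction differed from member to member, and each role with more than 1 called gene, ligands, receptors, secreted inhibitors and feedback targets, held genes called in both directions. In bulk RNA, fewer cells that express a gene and less of its RNA per cell cannot be told apart.

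**Figure D1:**
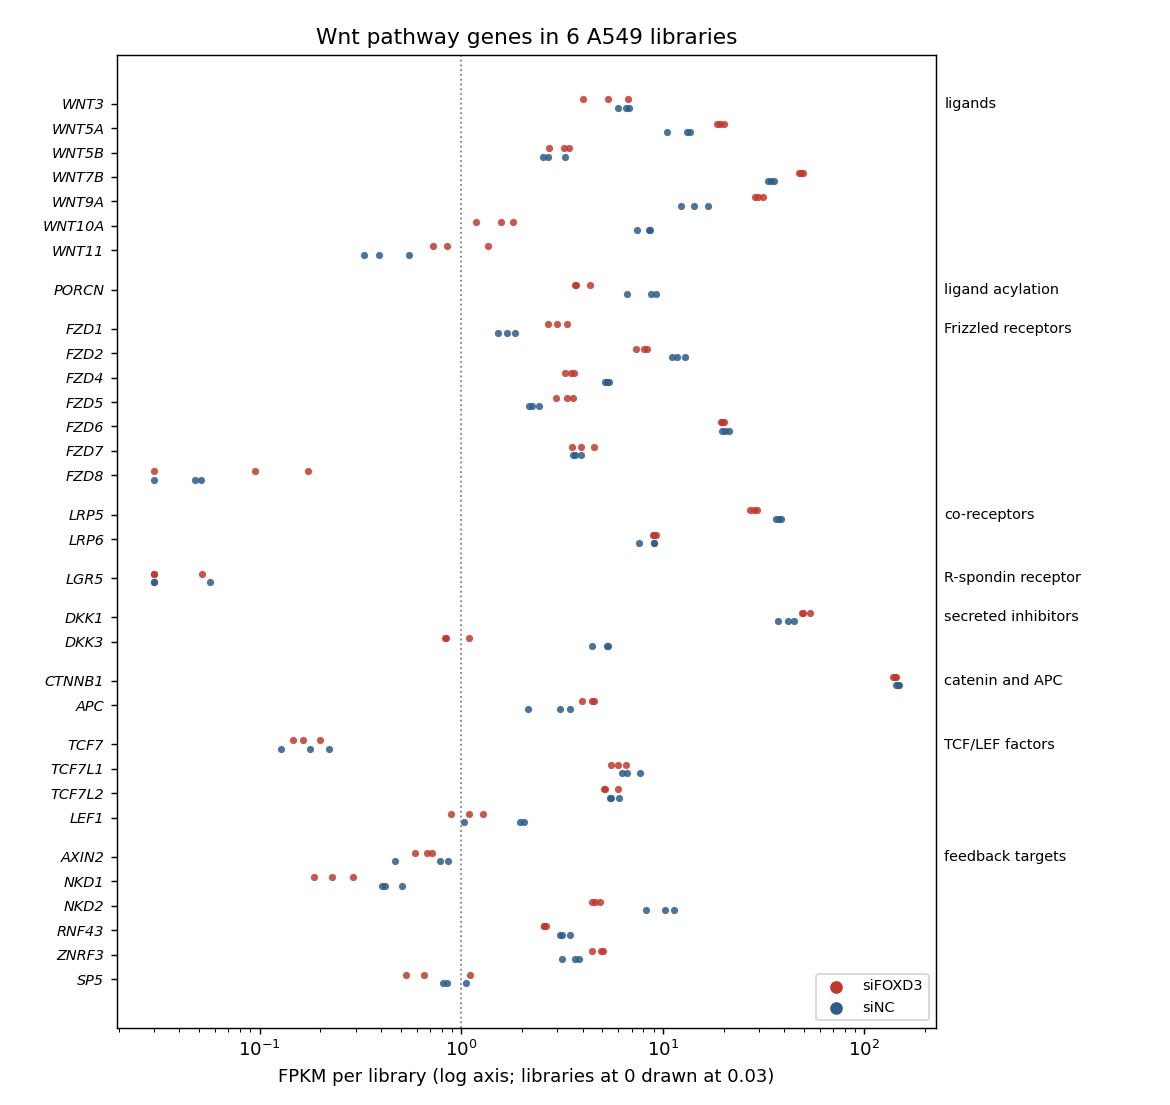
FPKM of the 32 Wnt genes in each library on a log axis, grouped by role, with siFOXD3 libraries above siNC libraries within a gene and libraries at 0 drawn at 0.03; the dotted line marks 1 FPKM. CTNNB1 has the highest values in both groups and lies farthest to the right, and LGR5 and FZD8 have the lowest and lie at the left. The points of WNT10A, DKK3 and WNT9A stand clear of each other between the groups.

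Among the ligands, WNT5A, WNT7B and WNT9A rose and WNT10A fell. WNT9A, a ligand known from joint and cartilage development, measured 31.5, 28.7 and 29.8 FPKM in siFOXD3 and 16.7, 14.2 and 12.3 FPKM in siNC. Every siFOXD3 library lay above every siNC library, the ratio of means was 2.08, and the log2 fold change on FPKM + 1, the scale of all fold changes here, was 1.01 ± 0.09 (SE, adjusted p = 7.12e-06). Of all tested genes 1.74% were called higher by at least 1 on this scale. WNT7B, the most abundant of the 7 ligands in every library, measured 48.2, 49.7 and 47.4 FPKM in siFOXD3 and 34.5, 35.4 and 33.2 FPKM in siNC. Its groups were also apart, by 0.48 ± 0.05 (adjusted p = 1.63e-05). WNT5A, the best known ligand of beta-catenin-independent signalling, measured 18.6, 19.2 and 20.2 FPKM in siFOXD3 and 10.5, 13.2 and 13.6 FPKM in siNC, with no overlap and a log2 fold change of 0.60 ± 0.09 (adjusted p = 0.00022).

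WNT10A, a ligand whose mutations cause tooth and skin appendage defects, showed the largest log2 fold change in size of the 25 tested genes. The ratio of means of DKK3 was about as low, at 0.183. WNT10A measured 1.57, 1.19 and 1.81 FPKM in siFOXD3 and 8.6, 7.42 and 8.51 FPKM in siNC. The highest siFOXD3 library thus stayed well under the lowest siNC library, and the mean was 0.186 times that of siNC. The log2 fold change was -1.87 ± 0.11 (limma adjusted p = 4.26e-07), or -1.01 with a pseudocount of 5 and -2.37 with 0.1. Of all tested genes 5.97% were called lower by at least 1. WNT3, a canonical ligand, measured 6.73, 4.02 and 5.33 FPKM in siFOXD3 and 5.98, 6.6 and 6.76 FPKM in siNC. Those values overlapped and WNT3 was not called (-0.25, 95% interval -0.56 to 0.06, adjusted p = 0.14), and the estimate rested on single libraries: it was -0.4 and called without siFOXD3 replicate 1 (adjusted p = 0.0175), but -0.088 without siFOXD3 replicate 2 (adjusted p = 0.526), and -0.058 with quantile normalization (adjusted p = 0.706). WNT5B, the closest relative of WNT5A, measured 3.44, 2.74 and 3.22 FPKM in siFOXD3 and 2.54, 2.69 and 3.27 FPKM in siNC. These overlapped as well and WNT5B was not called (0.11, interval -0.14 to 0.36, adjusted p = 0.41), while quantile normalization, which shifted the median of all genes from -0.08 to 0.03, gave a call at 0.38 (adjusted p = 0.0104). Leaving out 1 library gave 0.054 without siNC replicate 1, 0.055 without siFOXD3 replicate 1 and 0.19 without siNC replicate 3, none of them called.

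WNT11, another beta-catenin-independent ligand, was listed at 0.725, 0.847 and 1.36 FPKM in siFOXD3 and 0.328, 0.389 and 0.552 FPKM in siNC. It missed the filter on low values, and its groups did not overlap. A fit without the filter put WNT11 at 0.46 on the log2 scale (limma adjusted p = 0.0194). That fit called 50.1% of all genes. The FPKM values of WNT11 correspond to roughly 11 to 21 fragments in siFOXD3 and 5 to 8 in siNC, so counting error is large. The 7 ligands summed to 111, 106 and 109 FPKM in siFOXD3 and 79.2, 79.9 and 78.3 FPKM in siNC. WNT7B made up 44.6 ± 1.85% of that sum in siFOXD3 and 43.4 ± 0.925% in siNC (mean ± SD, n = 3 each, here and below), and WNT9A 27.6 ± 0.767% in siFOXD3 and 18.2 ± 2.69% in siNC. WNT10A made up 1.4 ± 0.275% in siFOXD3 and 10.3 ± 0.914% in siNC. The order in siFOXD3 was WNT7B, WNT9A, WNT5A, WNT3, WNT5B, WNT10A and WNT11; in siNC WNT10A stood above WNT3 and the values of WNT9A and WNT5A overlapped.

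**Figure D2:**
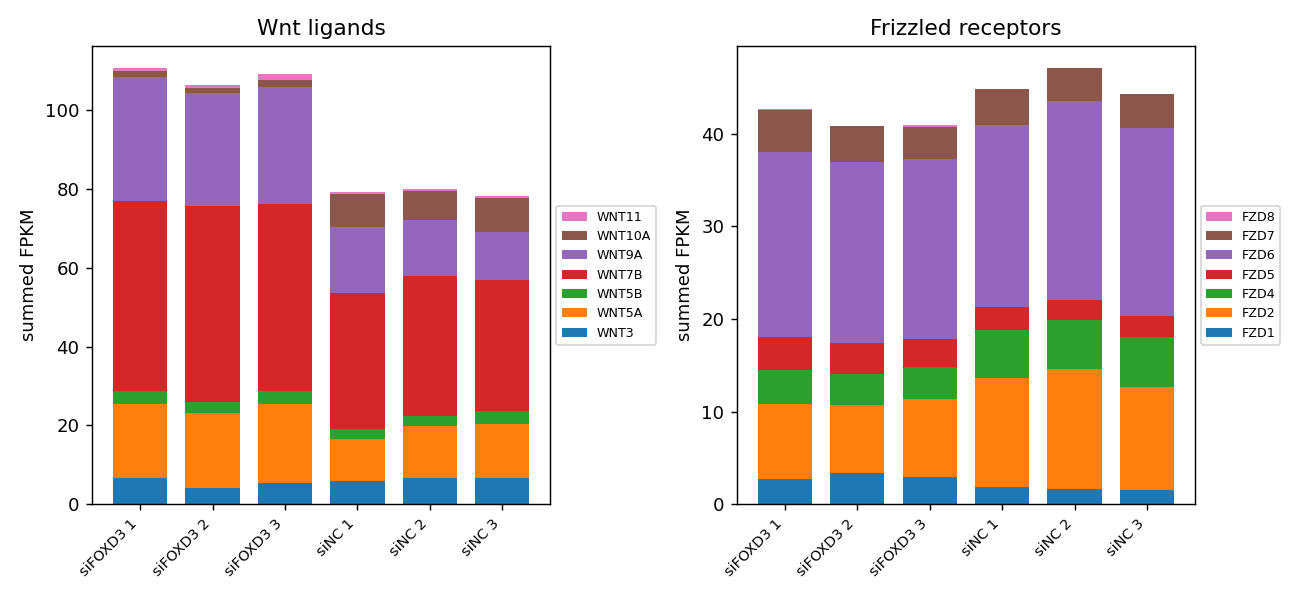
Summed FPKM of the 7 ligands (left) and the 7 Frizzled receptors (right) in each library, with the siFOXD3 libraries left of the siNC libraries and each colour a gene. The ligand sums lie at 106 to 111 in siFOXD3 and 78.3 to 79.9 in siNC, and the receptor sums at 40.9 to 42.7 and 44.3 to 47.1.

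PORCN, the membrane acyltransferase that attaches a lipid to Wnt proteins, fell. It measured 3.7, 4.33 and 3.66 FPKM in siFOXD3 and 9.22, 6.63 and 8.74 FPKM in siNC. The groups did not overlap, and the log2 fold change was -0.90 ± 0.12 (limma adjusted p = 7.43e-05), with -0.56 at a pseudocount of 5 and -1.04 at 0.1. It thus moved opposite to the 3 ligands that rose and in the same direction as WNT10A, which fell.

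Among the Frizzled receptors FZD1 and FZD5 rose, FZD2 and FZD4 fell, and FZD6 and FZD7 were not called. FZD2 measured 8.1, 7.38 and 8.39 FPKM in siFOXD3 and 11.8, 12.9 and 11.1 FPKM in siNC (log2 fold change -0.53 ± 0.08, adjusted p = 0.00021). FZD4, known as a receptor for norrin in retinal vessels as well as for Wnts, measured 3.64, 3.27 and 3.5 FPKM in siFOXD3 and 5.16, 5.31 and 5.41 FPKM in siNC. Its log2 fold change was -0.49 ± 0.08 (limma adjusted p = 0.000453), with -0.26 under quantile normalization, -0.28 at a pseudocount of 5 and -0.6 at 0.1. All siFOXD3 libraries of both genes were below all siNC libraries. In GENCODE 29 exons of FZD4 overlap those of PRSS23 on the opposite strand, which averaged 62.5 ± 2.03 FPKM in siFOXD3 and 73.4 ± 1.46 FPKM in siNC, and since the use of strand is not stated in the notes, the FZD4 level is uncertain to that extent.

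FZD1 measured 2.7, 3.36 and 2.97 FPKM in siFOXD3 and 1.85, 1.69 and 1.53 FPKM in siNC. Its log2 fold change was 0.58 ± 0.11 (limma adjusted p = 0.000784), with 0.26 at a pseudocount of 5 and 0.8 at 0.1. FZD5 measured 3.6, 3.35 and 2.96 FPKM in siFOXD3 and 2.42, 2.17 and 2.25 FPKM in siNC. Its log2 fold change was 0.39 ± 0.10 (limma adjusted p = 0.00588), with 0.19 at a pseudocount of 5, 0.51 at 0.1 and 0.65 under quantile normalization. Both receptors were higher in every siFOXD3 library than in any siNC library. FZD6, the most abundant Frizzled and a receptor known from planar cell polarity, measured 20, 19.6 and 19.4 FPKM in siFOXD3 and 19.7, 21.4 and 20.3 FPKM in siNC. Its groups overlapped, and its log2 fold change of -0.05 (interval -0.18 to 0.08, adjusted p = 0.431) turned to 0.03 with median-of-ratios scaling. FZD7 measured 4.53, 3.91 and 3.53 FPKM in siFOXD3 and 3.93, 3.59 and 3.66 FPKM in siNC. These values overlapped too, and FZD7 was not called (0.07, interval -0.15 to 0.30, adjusted p = 0.529), with an estimate near 0 without siFOXD3 replicate 1 and a call at 0.32 with quantile normalization (adjusted p = 0.0165).

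FZD8 was at 0.095, 0 and 0.173 FPKM in siFOXD3 and 0, 0.0514 and 0.0479 FPKM in siNC, at most about 6 fragments in any library, and was not tested. Where it was at 0, a count of 0 allows up to 3 fragments, or 0.0991 FPKM in siFOXD3 replicate 2 and 0.0974 FPKM in siNC replicate 1, which covers counting error only. The 7 receptors summed to 42.7, 40.9 and 40.9 FPKM in siFOXD3 and 44.9, 47.1 and 44.3 FPKM in siNC, a smaller gap than that of the ligand sums. FZD6 made up 47.4 ± 0.501% of the sum in siFOXD3 and 45.1 ± 1.01% in siNC, FZD2 19.2 ± 1.24% and 26.2 ± 1.17%, and FZD1 7.27 ± 0.95% and 3.72 ± 0.346%. FZD6 and FZD2 thus led in both groups; below them, FZD7, FZD4, FZD5 and FZD1 followed in siFOXD3, each overlapping the next.

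The co-receptors differed. LRP5, known also from bone mass disorders, measured 29.3, 27 and 28.4 FPKM in siFOXD3 and 37.7, 38.6 and 36.6 FPKM in siNC, and fell by 0.40 ± 0.05 on the log2 scale (adjusted p = 9.41e-05) with no overlap. LRP6, which serves the same step, measured 8.9, 9.29 and 9.04 FPKM in siFOXD3 and 7.65, 9.07 and 9.09 FPKM in siNC. It was not called (0.07, interval -0.11 to 0.25, adjusted p = 0.446), and the estimate was near 0 without siNC replicate 1. LGR5, the R-spondin receptor that marks intestinal stem cells, was listed at 0.052 FPKM in siFOXD3 replicate 1 and 0.0565 FPKM in siNC replicate 2, about 2 fragments each, and at 0 in the other libraries, where up to 0.0862 FPKM in siFOXD3 and 0.0847 FPKM in siNC could have gone unseen.

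The secreted inhibitors parted further. DKK3, a Dickkopf relative often silenced in carcinomas whose action on Wnt signalling is debated, measured 1.09, 0.828 and 0.838 FPKM in siFOXD3 and 5.32, 4.46 and 5.31 FPKM in siNC. DKK3 reached 1 FPKM in every siNC library but, in siFOXD3, in replicate 1 only. It passed the filter through the siNC libraries, so it was tested because it was high there. The siFOXD3 mean was 0.183 times that of siNC, with a log2 fold change of -1.65 ± 0.11 (limma adjusted p = 7.39e-07). It was -0.76 with a pseudocount of 5 and -2.34 with 0.1. DKK1, which blocks LRP5 and LRP6 and is itself a known target of beta-catenin, was the second most abundant of the 32 genes in both groups. It measured 49.4, 53.8 and 48.8 FPKM in siFOXD3 and 41.6, 44.8 and 37.4 FPKM in siNC, and it rose by 0.29 ± 0.07 (adjusted p = 0.00408). Neither gene's groups overlapped.

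CTNNB1, which encodes beta-catenin, was the most abundant member. It measured 144, 138 and 141 FPKM in siFOXD3 and 143, 148 and 146 FPKM in siNC, overlapping values that gave -0.05 (interval -0.15 to 0.05, adjusted p = 0.326). The sign depended on scaling, since median-of-ratios scaling gave 0.038 without a call and quantile normalization -0.17 with one (adjusted p = 0.00655). APC, a scaffold of the destruction complex, measured 4.53, 3.99 and 4.43 FPKM in siFOXD3 and 2.15, 3.09 and 3.46 FPKM in siNC. The groups did not overlap and APC rose by 0.46 ± 0.13 (limma adjusted p = 0.0101), with 0.24 at a pseudocount of 5, 0.58 at 0.1 and 0.70 under quantile normalization. RNA levels of these genes do not measure the protein, whose stability the pathway sets.

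None of the 3 tested TCF/LEF factors was called, and the groups of each overlapped. Of all tested genes 65.9% were called, and for 70.7% the groups did not overlap. TCF7L1, mostly a repressor, measured 6, 6.56 and 5.53 FPKM in siFOXD3 and 6.63, 6.24 and 7.7 FPKM in siNC (-0.16, interval -0.37 to 0.05, adjusted p = 0.168). TCF7L2, the main factor of intestinal epithelium, measured 5.19, 5.08 and 6.01 FPKM in siFOXD3 and 5.54, 6.07 and 5.45 FPKM in siNC (-0.06, interval -0.26 to 0.14, adjusted p = 0.574). Under quantile normalization both estimates were above 0, at 0.0056 and 0.13, without a call. LEF1, a factor and a known target of the pathway, measured 0.888, 1.28 and 1.09 FPKM in siFOXD3 and 1.03, 2.05 and 1.96 FPKM in siNC. Only siNC replicate 1 lay among the siFOXD3 values; LEF1 was not called (-0.34, interval -0.70 to 0.02, adjusted p = 0.0896), it was without that library (-0.53, adjusted p = 0.00443), and the estimate was 0.0024 with quantile normalization. TCF7 lay between 0.147 and 0.200 FPKM in siFOXD3 and between 0.128 and 0.221 FPKM in siNC, 5 to 9 fragments in any library, and was not tested.

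**Figure D3:**
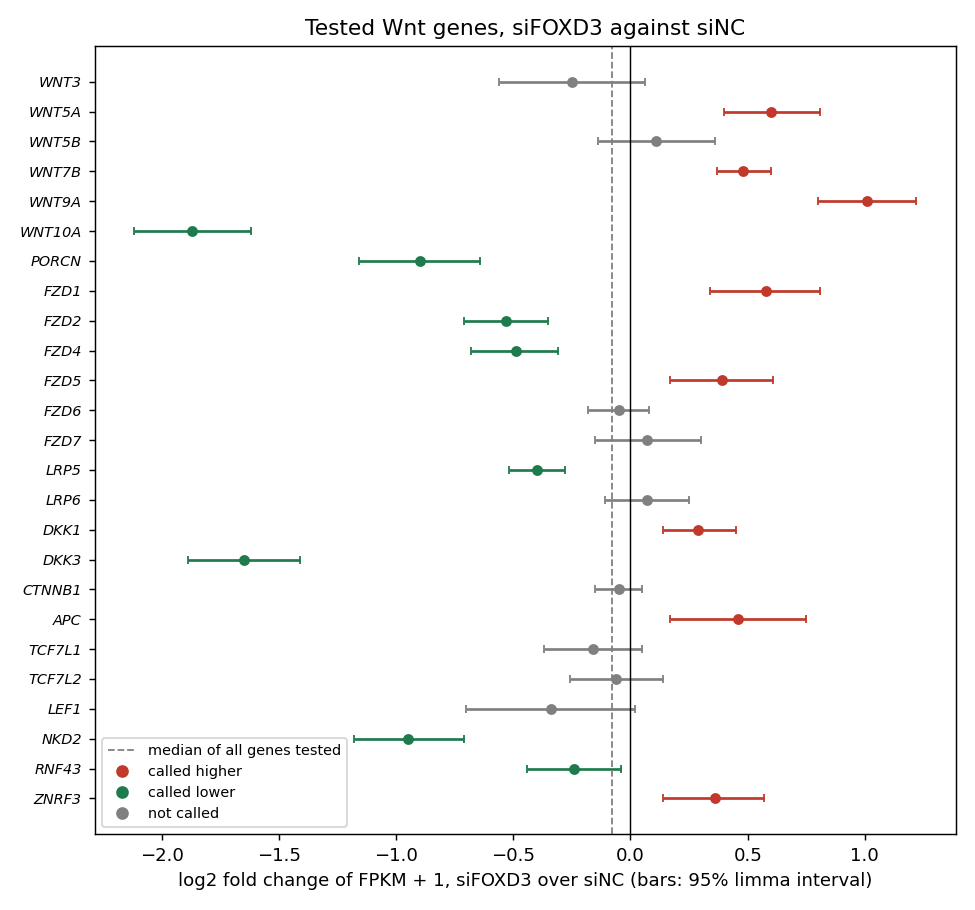
Log2 fold change of FPKM + 1, siFOXD3 over siNC, for the 25 tested Wnt genes with 95% limma intervals; colours give the call and the dashed line the median of all genes tested. WNT10A and DKK3 lie farthest to the left at -1.87 and -1.65, WNT9A farthest to the right at 1.01, and the TCF/LEF factors and CTNNB1 lie across 0.

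Of the 6 feedback targets 3 were tested, and 1 rose and 2 were called lower, where over all genes 27.2% rose and 38.7% fell. NKD2, which binds Dishevelled, measured 4.86, 4.62 and 4.43 FPKM in siFOXD3 and 11.3, 10.2 and 8.26 FPKM in siNC. Every siFOXD3 value was under every siNC value, with a log2 fold change of -0.95 ± 0.11 (limma adjusted p = 2.51e-05). It was -0.63 with a pseudocount of 5 and -1.07 with 0.1. ZNRF3, a ubiquitin ligase that clears Frizzled receptors from the surface, measured 5.05, 4.93 and 4.45 FPKM in siFOXD3 and 3.66, 3.15 and 3.82 FPKM in siNC. It rose by 0.36 ± 0.10 (limma adjusted p = 0.0077), with 0.20 at a pseudocount of 5, 0.43 at 0.1 and 0.59 under quantile normalization. RNF43, the ligase with the same task, measured 2.56, 2.58 and 2.64 FPKM in siFOXD3 and 3.47, 3.17 and 3.1 FPKM in siNC. Its values did not overlap and it was called at -0.24 ± 0.09 (adjusted p = 0.0401), but the call did not hold with any of the 6 libraries left out (adjusted p = 0.0532 to 0.0965) or with median-of-ratios scaling (0.12), and quantile normalization gave 0.026. Exons of RNF43 overlap those of SUPT4H1 in GENCODE 29, which averaged 51.5 ± 4.44 FPKM in siFOXD3 and 48.9 ± 3.17 FPKM in siNC, so its level is uncertain too.

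The other feedback targets were low. AXIN2, the most used readout of canonical signalling, was at 0.59, 0.72 and 0.674 FPKM in siFOXD3 and 0.467, 0.786 and 0.863 FPKM in siNC. SP5, a transcription factor of the pathway, was at 0.53, 1.1 and 0.657 FPKM in siFOXD3 and 0.812, 0.854 and 1.06 FPKM in siNC. Both overlapped between the groups, and without a filter neither was called (-0.03 with adjusted p = 0.841 for AXIN2 and -0.12 with adjusted p = 0.481 for SP5). NKD1, the relative of NKD2, was at 0.229, 0.187 and 0.289 FPKM in siFOXD3 and 0.406, 0.51 and 0.421 FPKM in siNC. It was lower in each siFOXD3 library and called when no filter was used (-0.23, limma adjusted p = 0.0174), where 50.1% of all genes were called. AXIN2, SP5 and NKD1 all stayed under the filter, and a pseudocount of 1 shrinks fold changes at these levels.

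Ratios of related genes within a library, which a scaling factor between libraries does not move apart from the pseudocount, were compared for 8 pairs, 6 of them with both genes above the filter. DKK3 passed the filter through its siNC libraries. The log2 ratio of DKK1 to DKK3 was 4.59, 4.91 and 4.76 in siFOXD3 and 2.75, 3.07 and 2.61 in siNC. That of RNF43 to ZNRF3 averaged -0.69 ± 0.09 in siFOXD3 and -0.10 ± 0.13 in siNC, a difference of -0.59. LRP5 to LRP6 averaged 1.53 ± 0.09 in siFOXD3 and 2.01 ± 0.14 in siNC, a difference of -0.48, and WNT5A to WNT5B 2.30 ± 0.15 and 1.81 ± 0.13, a difference of 0.49. The groups overlapped for none of these 4 ratios, and each gave a two-sided exact permutation p of 0.1, the smallest that 3 libraries against 3 allow, or 0.15 adjusted over the 6 pairs. Among single genes the groups did not overlap for 70.7% of all those tested, so separation was common, and the share over other gene pairs was not computed. The ratios of TCF7L1 to TCF7L2 (0.13 ± 0.21 in siFOXD3, 0.23 ± 0.20 in siNC, exact p = 0.6) and of FZD6 to FZD7 (2.06 ± 0.12 and 2.18 ± 0.11, exact p = 0.2) overlapped. The other 2 pairs, each with a gene under the filter, were not tested: NKD1 to NKD2 averaged -2.19 ± 0.10 in siFOXD3 and -2.91 ± 0.21 in siNC, and TCF7 to LEF1 -0.83 ± 0.15 and -1.17 ± 0.33. The added 1 weighs heavily on both, since NKD1 and TCF7 stayed under 1 FPKM in every library. Without it NKD1 and NKD2 fell about alike, the siFOXD3 mean being 0.527 times that of siNC for NKD1 and 0.467 times for NKD2. With quantile normalization the WNT5A to WNT5B difference was 0.27 and that of FZD6 to FZD7 was -0.34 with no overlap (exact permutation p = 0.1). The FZD6 to FZD7 difference was -0.13 as given and -0.066 without siFOXD3 replicate 1. The DKK1 to DKK3 difference was 1.03 with a pseudocount of 5 and 2.63 with 0.1. That of RNF43 to ZNRF3 was -0.32 with a pseudocount of 5 and -0.74 with 0.1.

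**Figure D4:**
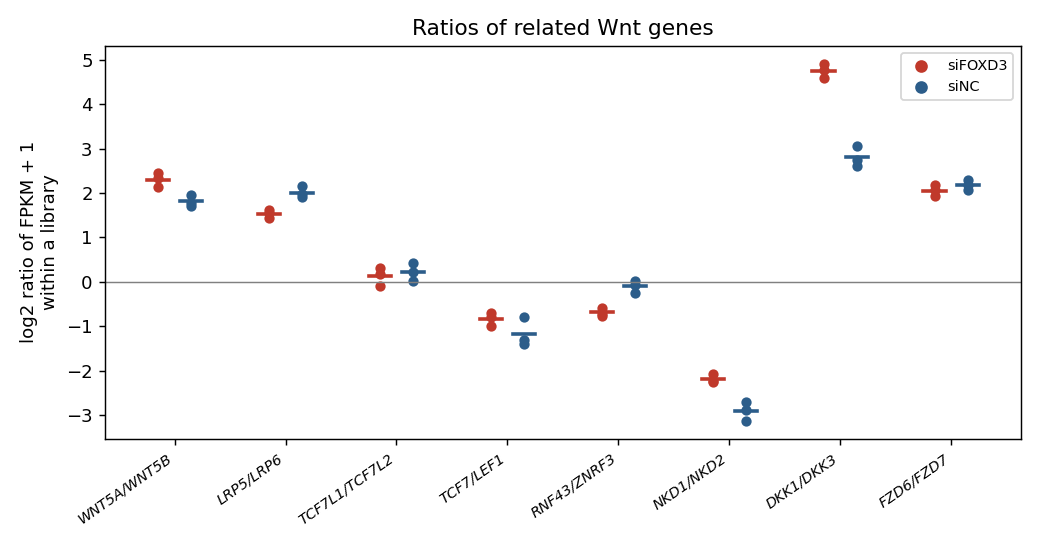
Log2 ratio of FPKM + 1 within each library for 8 pairs of related Wnt genes, siFOXD3 left of siNC within a pair, with bars at the group means. The DKK1/DKK3 points lie at 4.59 to 4.91 in siFOXD3 and 2.61 to 3.07 in siNC, and the TCF7L1/TCF7L2 points of the groups overlap.

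A further list of 108 genes of the pathway was read from the same fit. Of these, 16 were in no library and 70 were tested, and 20 were called higher and 29 lower, which is 70% beside the 65.9% of all genes, with a median of -0.06. Quantile normalization gave 26 higher and 25 lower. Of 5 tested ligands 3 fell and none rose. That is 60% called, beside 65.9% of all genes, of which 27.2% rose and 38.7% fell. WNT4 averaged 0.283 ± 0.0675 FPKM in siFOXD3 and 1.56 ± 0.382 FPKM in siNC (-0.99). It passed the filter through the siNC libraries alone, so it was tested because it was high there. WNT6 averaged 3.42 ± 0.507 FPKM in siFOXD3 and 6.92 ± 0.471 FPKM in siNC (-0.85). The levels of WNT4 and WNT6 are well below those of WNT7B, WNT9A and WNT5A. WLS, the carrier that takes Wnts to the cell surface, averaged 11.7 ± 0.606 FPKM in siFOXD3 and 16 ± 0.324 FPKM in siNC (-0.42, adjusted p = 0.000245), and so was called lower like PORCN; WLS was added to the named genes after its value was seen.

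Of 3 tested genes on a list of pathway inhibitors 1 rose and 2 fell, where over all genes 27.2% rose and 38.7% fell. SFRP1, a decoy that binds Wnts, rose, with 9.5 ± 0.739 FPKM in siFOXD3 and 4.32 ± 0.354 FPKM in siNC (0.98, limma adjusted p = 5.35e-06). KREMEN1, a receptor for DKK1, fell, with 5.41 ± 0.218 FPKM in siFOXD3 and 10.6 ± 0.783 FPKM in siNC (-0.85). Of 5 tested receptors 2 rose and 1 fell, where over all genes 27.2% rose and 38.7% fell. ROR1, a receptor of WNT5A, rose to 4.83 ± 0.243 FPKM in siFOXD3, against 2.33 ± 0.536 FPKM in siNC (0.82, limma adjusted p = 0.000182). PTK7 fell, with 23.2 ± 0.588 FPKM in siFOXD3 and 34.1 ± 1.04 FPKM in siNC (-0.54), and was named after its value was seen. LRP4 averaged 1.57 ± 0.0492 FPKM in siFOXD3 and 0.729 ± 0.103 FPKM in siNC (0.57), and passed the filter through the siFOXD3 libraries alone. Of 19 tested cytoplasmic genes 4 rose and 11 fell, 78.9% called, where over all genes 27.2% rose and 38.7% fell. FAM123B, also known as AMER1, a partner of APC, rose to 13.5 ± 0.356 FPKM in siFOXD3, against 7.99 ± 0.566 FPKM in siNC (0.69). FRAT1, which binds the kinase GSK3, averaged 0.654 ± 0.123 FPKM in siFOXD3 and 1.85 ± 0.369 FPKM in siNC (-0.78). It passed the filter through the siNC libraries alone.

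Of 15 tested nuclear partners 4 rose and 4 fell, 53.3% called beside 65.9% of all genes, and the co-repressor TLE3 rose the most, with 14.8 ± 0.81 FPKM in siFOXD3 and 10.3 ± 0.248 FPKM in siNC (0.49). Of 13 tested genes often listed as Wnt targets 7 rose and 4 fell, 84.6% called beside 65.9% of all genes. Over all tested genes 27.2% rose and 38.7% fell. NEDD9, an adhesion scaffold, had the largest log2 fold change in size of the 70 on FPKM + 1. It averaged 15.1 ± 0.798 FPKM in siFOXD3 and 46.2 ± 2.75 FPKM in siNC (-1.55, limma adjusted p = 4.66e-08). The added 1 shrinks changes at low levels. The ratio of means was 0.327 for NEDD9, 0.182 for WNT4 and 0.323 for the planar polarity gene CELSR3. PLAUR, the urokinase receptor, fell (-0.78), and FOSL1, an AP-1 subunit, and BAMBI, a decoy receptor, rose (0.68 and 0.52). Most of these genes answer to other pathways as well, so their counts are not a readout of Wnt activity.

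**Figure D5:**
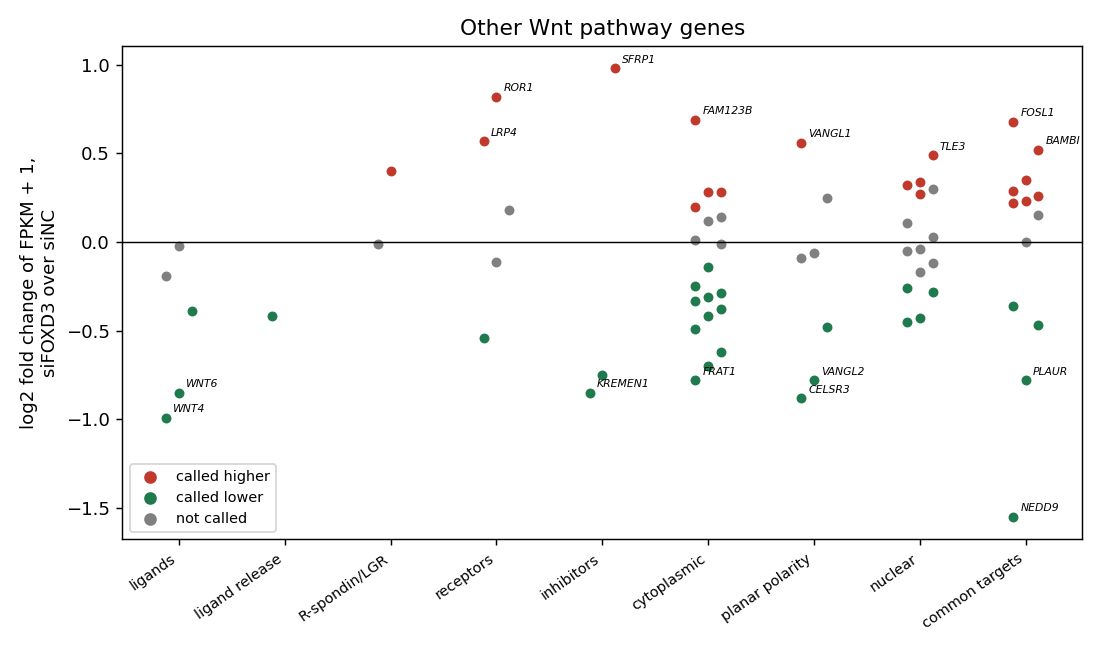
Log2 fold change of FPKM + 1, siFOXD3 over siNC, for the 70 tested genes of the further list by role, coloured by call, with the 8 largest called rises and 8 largest called falls named. SFRP1 at 0.98 is the highest point and NEDD9 at -1.55 the lowest, and both directions occur among receptors, cytoplasmic and nuclear genes and common targets.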

How the data were processed

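Messenger RNA of 6 A549 libraries (3 siFOXD3, 3 siNC, grouped by title) was measured, from 1 ug of total RNA with a TruSeq kit per the labels' protocols. Per the file headers, the authors gave FPKM values by gene symbol, with 333 symbols on several rows of a file, and TopHat, Cufflinks and hg19 are named per the submitters' processing notes; versions, annotation and use of strand are not stated there. Rows of 1 symbol were summed and an absent symbol was set to 0. The test was limma 3.58.1 (R 4.3.3, trend and robust) on values of log2(FPKM + 1), group as the only term, for genes with at least 1 FPKM in at least 3 libraries, with two-sided Benjamini-Hochberg adjustment over all genes tested. Named were all 32 members and, of the further list, genes among the 8 largest called rises and 8 largest called falls. Members and lists were chosen with earlier results of these data known. Depth was estimated from steps between low values of genes with 1 transcript of 700 to 4000 bases in GENCODE 29, assuming fragments of 150 bases, and fragments behind a value from the gene's longest transcript, so both are rough and cover counting error only. In GENCODE 29, exons of WNT11, FZD6, LGR5, DKK1, TCF7L2, LEF1 and NKD1 also overlap antisense genes that the files do not list, and exons of FZD8, APC and AXIN2 overlap genes on the same strand that the files do not list, so these levels are uncertain. The depth search covered a fixed range only, so it always gave a value in that range. The score for values falling on steps was 0.227 to 0.335 in siFOXD3 and 0.27 to 0.363 in siNC, well short of a perfect fit. The fit and the depth step were tested on simulated data, the depth step with ideal counting error and depths inside that range. For the fit, noise was independent and normal and only a small part of the genes was changed. In the data 65.9% of tested genes were called, so that simulation did not cover this setting. Pandas 2.3.3, numpy 2.4.6, scipy 1.17.1 and matplotlib 3.10.9 were used in Python 3.11.15. Alternatives were other pseudocounts, filters and scalings, limma without trend and robust, a replicate block, and leaving out each library.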

Additional observations from a re-analysis of the deposited data

How the results depend on the processing

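Of the 16 called Wnt genes, 15 kept their direction and call under each of the 14 alternatives that could test them, and RNF43 did not. The count of called members was 15 to 18 under the alternatives other than a filter at a mean of 5 FPKM, which left 14 members tested and 8 called, fewer because fewer were tested; leaving out 1 library gave 15 to 16. Over all genes, leaving out 1 library gave 7461 to 8394 calls, and the share of called genes that were lower was 58.7%, 50.1% with median-of-ratios scaling and 47.4% with quantile normalization; over the further list it was 59.2% and, with quantile normalization, 49%. Signs turned for FZD6, CTNNB1, TCF7L1, TCF7L2, FZD7 and LRP6, at -0.16 to 0.07 as reported, and for LEF1 (-0.34) and the called RNF43 (-0.24): with median-of-ratios scaling FZD6 was at 0.03, CTNNB1 at 0.038 and TCF7L2 at 0.015; with quantile normalization TCF7L1 was at 0.0056, TCF7L2 at 0.13, LEF1 at 0.0024 and RNF43 at 0.026; with 1 library left out FZD7 ran from -0.0013 (without siFOXD3 replicate 1) to 0.14 and LRP6 from -0.00035 (without siNC replicate 1) to 0.11; the cause was not tested. The TCF7L1 to TCF7L2 ratio difference ran from -0.2 to 0.018 with 1 library left out, above 0 without siFOXD3 replicate 3 or siNC replicate 3. The labels do not say that replicate numbers pair the libraries, and the correlations of same-numbered deviations were 0.0613, 0.163 and 0.115, each library's highest being with its own number, a hint from the data and not the design. With the replicate block 16 members, 50 genes of the further list and 8172 of all genes were called, RNF43 lost its call (adjusted p = 0.0648) and LEF1 gained one (0.0426). Depth limits LGR5, FZD8, TCF7, SP5 and WNT11, with at most about 21 fragments in a library.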

Other observations

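Genes around the R-spondin receptors and planar cell polarity, branches that feed into or off Wnt signalling, were also read from the fit. RSPO1, RSPO2 and RSPO4, ligands of the LGR receptors, were listed in no library, and RSPO3 averaged 0.497 FPKM in siFOXD3 and 0.463 FPKM in siNC, under the filter. LGR4, the most abundant LGR receptor here, averaged 18 FPKM in siFOXD3 and 18.1 FPKM in siNC with a log2 fold change of -0.01 and no call, and LGR6 averaged 2.97 ± 0.345 FPKM in siFOXD3 and 2.01 ± 0.394 FPKM in siNC (0.40, limma adjusted p = 0.0143). In the planar polarity list 1 of 7 tested genes rose and 3 fell, 57.1% called, where 65.9% of all tested genes were called, 27.2% higher and 38.7% lower. The membrane proteins VANGL1 and VANGL2, close relatives, were called in opposite directions: VANGL1 averaged 35.2 ± 0.109 FPKM in siFOXD3 and 23.6 ± 0.376 FPKM in siNC (0.56), and VANGL2 9.62 ± 0.389 FPKM in siFOXD3 and 17.2 ± 0.355 FPKM in siNC (-0.78). CELSR3, an atypical cadherin, averaged 0.669 ± 0.00597 FPKM in siFOXD3 and 2.07 ± 0.113 FPKM in siNC (-0.88), and passed the filter through the siNC libraries alone. CELSR1 was not called (-0.06). LGR4, LGR6, RSPO3 and CELSR1 were named after their values were seen.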
